A study of Homo sapiens with 9 samples.

Results

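The proteasome is the protein-degrading machine of the cell, and the genes that encode its subunits, assembly chaperones and regulators were followed here in HepG2 cells after knockdown of the long non-coding RNA *TUG1*. The members were taken by symbol, as every gene named PSMA, PSMB, PSMC, PSMD, PSME, PSMF or PSMG followed by a digit. This gave 47 genes, of 13017 rows in the table that compares the first knockdown line with the control, 12953 rows in the table for the second line, and 12854 rows found in both. Of the 47, 46 encode a subunit, a chaperone or a regulator of the proteasome. The remaining gene, *PSMC3IP*, encodes a recombination factor that carries the name only because it binds PSMC3, and it is kept apart below.

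HepG2 is an established human liver cancer line, grown here in low-glucose medium. Every library came from cells that carried a doxycycline-inducible lentiviral hairpin vector, with a control hairpin in sh-Con and 1 of 2 hairpins against *TUG1* in sh1-*TUG1* and sh2-*TUG1*, so a hairpin cannot be told apart from the stable line it was introduced into. There were 9 libraries, 3 per group, which the study calls technical replicates, so the p-values measure the spread between libraries and not between independent cultures. The level of *TUG1* was not analysed here. Both knockdown comparisons use the same 3 control libraries, so a value that is unusual in a control library enters both.

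The proteasome consists of a barrel, the 20S core, and of caps that open it. The core stacks rings of alpha subunits, which form the gate, and rings of beta subunits, of which *PSMB5*, *PSMB6* and *PSMB7* encode the ones that cut peptide bonds. The 19S cap recognises ubiquitin-tagged proteins, removes the tag and unfolds them with a ring of ATPases. In immune cells and after exposure to interferon, the cutting subunits are replaced by *PSMB8*, *PSMB9* and *PSMB10*, which form the immunoproteasome. Alternative caps, encoded by *PSME1* to *PSME4*, open the core without ubiquitin. When proteasome activity falls short, the transcription factor NFE2L1 raises the transcription of many subunit genes together.

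Promoter sequences are shown first, for the genes on which the results turn. RefSeq windows of 300 bases, 250 before and 50 after an annotated start (GRCh38.p14), were found for 41 of the 47 genes. The letters GAAANNGAAA, the core of the interferon-stimulated response element, were searched on both strands. They were in 7 of the 51 windows of these genes (13.7%), against 3.57% of all 35116 windows, each from a different gene. The genes were *PSMB8*, *PSMB10*, *PSME1*, *PSME2*, *PSMG4*, *PSMA4* and *PSMB4*. Of the 7 genes, *PSMB8*, *PSMB10* and *PSMG4* fell in sh2-*TUG1*, where 21.9% of all genes did. *PSME1*, *PSME2*, *PSMA4* and *PSMB4* did not pass the test there. Whether the letters bear on the change of a gene was not tested. The windows of the 3 that fell, and of *PSME1* and *PSME2*, follow on the strand of the gene, with the match in capitals.
PSMB8 (chr6:32844032-32844061, minus strand): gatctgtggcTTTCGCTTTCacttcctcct
PSMB10 (chr16:67936852-67936881, minus strand): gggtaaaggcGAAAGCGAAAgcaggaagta
PSMG4 (chr6:3258904-3258933, plus strand): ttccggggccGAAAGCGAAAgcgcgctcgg
PSME1 (chr14:24136189-24136218, plus strand): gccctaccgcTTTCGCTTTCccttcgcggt
PSME2 (chr14:24146619-24146648, minus strand): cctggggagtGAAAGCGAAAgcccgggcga

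The letters TGACNNNGC, the core of the antioxidant response element that NFE2L1 and NFE2L2 bind together with small MAF proteins, were in 15 of the 51 windows (29.4%), against 13.3% of all windows, again on both strands. Of the 15 genes with a match, *PSME4* and *PSMD9* rose and *PSMG2* fell in sh2-*TUG1*, where 43.5% of all genes passed the test. *PSMD5* rose and *PSMG1* and *PSMD12* fell in sh1-*TUG1*, where 24.8% of all genes passed. The other 9 did not pass the test in either line. Windows are shown for *PSME4* and *PSMD9*, and for *PSMC4* and *PSMB3* from the last group.
PSME4 (chr2:53971009-53971037, minus strand): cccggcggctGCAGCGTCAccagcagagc
PSMD9 (chr12:121888678-121888706, plus strand): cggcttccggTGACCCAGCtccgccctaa
PSMC4 (chr19:39971182-39971210, plus strand): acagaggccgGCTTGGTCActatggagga
PSMB3 (chr17:38752627-38752655, plus strand): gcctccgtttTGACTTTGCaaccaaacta

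A match says only that these letters are in the window. A further motif searched, the letters CCAAT, was in 21 of the 51 windows (41.2%), against 34.6% of all windows. The motifs were chosen with the fold changes known, and genes on both sides of the test held them.

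Proteasome genes were abundant in HepG2. Their summed level was 5054 ± 29.6 CPM (counts scaled to a common library total, mean ± SD, n = 3) in sh-Con, 4959 ± 36.8 in sh1-*TUG1* and 5097 ± 58.2 in sh2-*TUG1*. These sums depend on the scaling described next. As shares of the unscaled library totals, the groups stood in another order, with sh2-*TUG1* lowest. The levels given are CPM after scaling of all 9 libraries by the trimmed mean of M values, and fold changes are from the quasi-likelihood test of edgeR, with p adjusted by Benjamini-Hochberg over every gene in a table. Of the 47 genes, 45 had a mean of at least 10 CPM, and *PSMB9* and *PSMC3IP* lay below it. The libraries held 33049003 to 39387125 counts over the shared genes. All 6 hepatocyte markers examined had a row, while of 5 markers of other cell types only *PECAM1* had one, at a mean of 7.64 CPM in sh-Con. Libraries sh-Con 1 and sh2-*TUG1* 3 deviated from their groups in a like way, with the highest r of the 27 library pairs between groups over 9312 genes of at least 10 CPM (0.31, the next 0.19). Over the 47 members their r was 0.50, and 2 other pairs had a higher one, up to 0.58. These are descriptions only. Calls of proteasome genes that rest on either library are also given without it, but those of genes outside the complex are not.

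The 47 genes changed little in either line. In sh1-*TUG1* against sh-Con, 5 of the 47 genes (10.6%) passed an adjusted p of 0.05, against 24.8% of all genes tested. In sh2-*TUG1*, 11 of 47 (23.4%) passed, against 43.5% of all genes. In sh2-*TUG1* against sh1-*TUG1*, 14 of 47 (29.8%) passed, against 42.7% of all genes. Since most proteasome genes are well expressed, the same was counted over genes of at least 10 CPM, where the shares were 5 of 45 against 29.2%, 11 of 45 against 47.7%, and 14 of 45 against 47.4%.

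No proteasome gene passed both an adjusted p of 0.05 and a fold change over 1.5 in any of the 3 comparisons by edgeR, against 4.96%, 13.3% and 10.6% of all genes. DESeq2 also placed 0 genes past both limits in each. Without the limit on fold, edgeR gave an unadjusted p under 0.05 for 18, 16 and 16 of the 47 genes, against 37.3%, 51.5% and 50.5% of all genes. DESeq2 called 6, 11 and 14 at an adjusted p of 0.05, against 26.6%, 44.6% and 44.4% of all genes.

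The size of the changes was small as well. The median absolute log2 fold change of the members was 0.10 in sh1-*TUG1*, against 0.13 for genes of at least 10 CPM, and 0.10 in sh2-*TUG1*, against 0.19. Signed changes centred close to 0, with medians of −0.03 for sh1-*TUG1* and −0.04 for sh2-*TUG1*. All 47 genes lay within 0.3 of no change in sh1-*TUG1* and 42 of 47 in sh2-*TUG1*, where 75.9% and 61.6% of all genes did. The 95% confidence interval lay wholly within a 1.5-fold change for 45 of the 47 genes in sh1-*TUG1*, the exceptions being *PSMB9* and *PSMC3IP*. It did so for 43 of 47 in sh2-*TUG1*, where *PSMG4* and *PSMB10* were also exceptions.

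**Figure D1:**
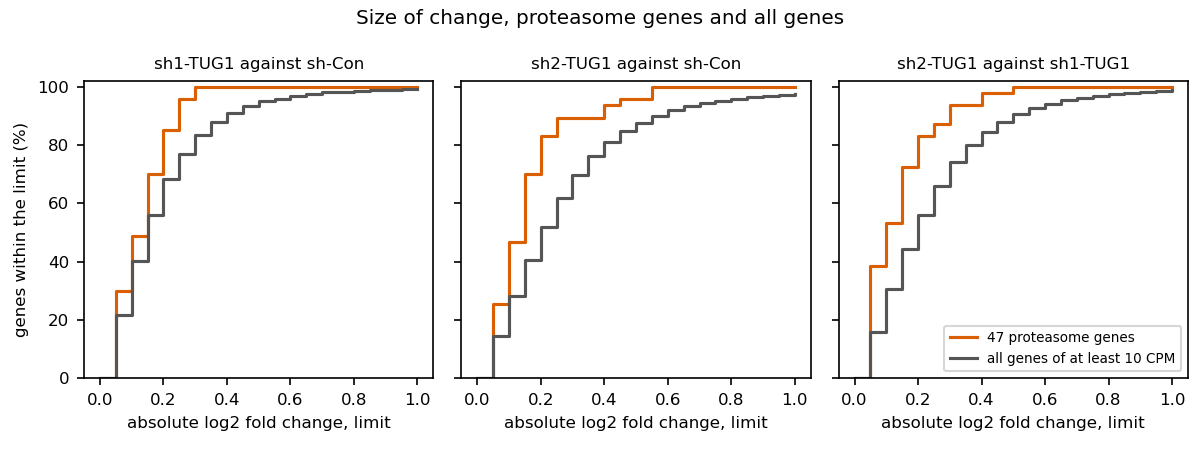
Percent of genes (y axis) whose absolute log2 fold change is no larger than the limit on the x axis, for the 47 proteasome genes and for all genes of at least 10 CPM, in each of the 3 comparisons. The line of the proteasome genes lies above the other in each, and reaches 100% at a limit of 0.3 in sh1-TUG1.

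In sh1-*TUG1*, 1 gene was higher (12.5% of all genes were) and 4 were lower (12.3% of all genes). In sh2-*TUG1*, 5 were higher (21.6% of all genes) and 6 were lower (21.9% of all genes). The split in sh1-*TUG1* depended on the scaling, with 5 higher and 2 lower when libraries were scaled by their size alone, and in sh2-*TUG1* that scaling left 4 higher and 10 lower. The 3 libraries of a knockdown line lay wholly above or below those of sh-Con for 19 of 47 genes in sh1-*TUG1* and 20 of 47 in sh2-*TUG1*, where 41.7% and 54.5% of all shared genes did.

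**Figure D2:**
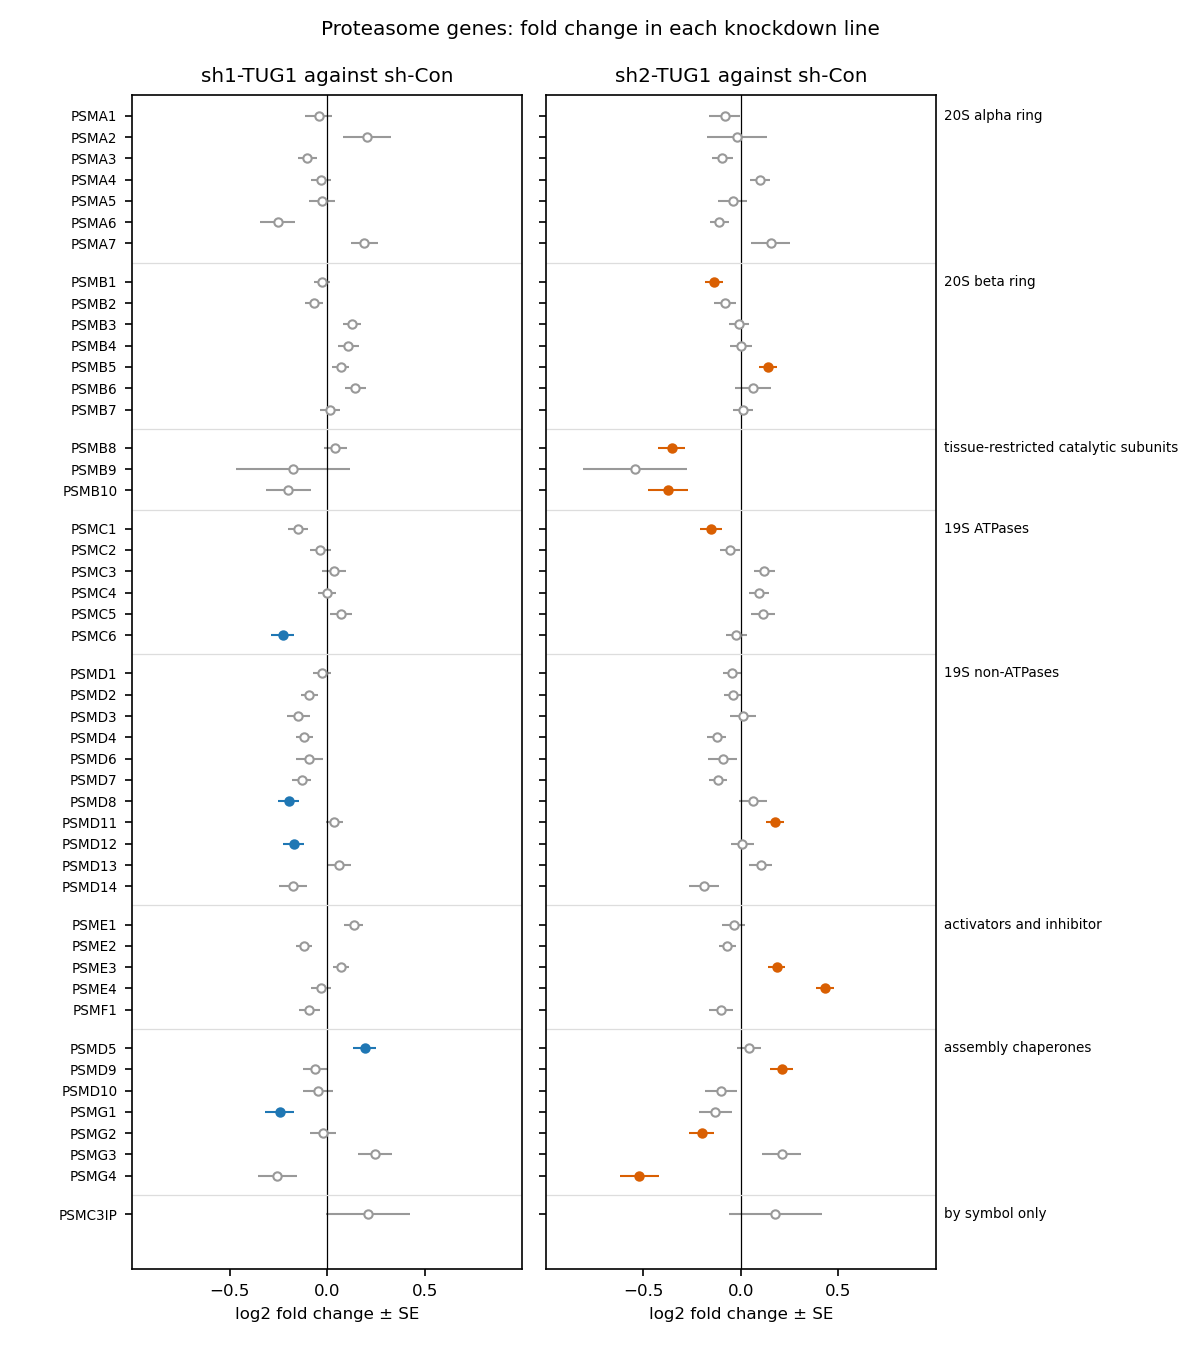
Log2 fold change (x axis, bars are ± SE, n = 3 against 3 libraries) of each of the 47 genes, by functional group, in sh1-TUG1 (left) and sh2-TUG1 (right) against sh-Con. Filled points passed an adjusted p of 0.05, which are 5 genes on the left and 11 on the right, and all points lie between −0.54 and 0.43.

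The alpha ring, which gates the core, held 7 measured genes, and edgeR called 0 of them in either line (24.8% and 43.5% of all genes were called). At an unadjusted p under 0.05 there were 2 in sh1-*TUG1*, 1 in each direction, and 1 in sh2-*TUG1* (37.3% and 51.5% of all genes). DESeq2 called 1 higher and 1 lower in the first line and 0 in the second (26.6% and 44.6% of all genes). Log2 fold changes ran from −0.25 to 0.20 in the first line and from −0.11 to 0.15 in the second. *PSMA6* had the lowest value in sh1-*TUG1* (log2 fold change −0.25, SE 0.089, adjusted p = 0.065). Its level was 284.6, 279.0 and 298.3 CPM in the control libraries, against 266.0, 256.4 and 201.2 CPM in those of sh1-*TUG1*. The third sh1-*TUG1* library was far below the other two. *PSMA7* and *PSMA2* were low in the libraries sh-Con 1 and sh2-*TUG1* 3, with *PSMA2* at 50.8 and 50.4 CPM there and between 69.5 and 81.1 CPM in the other 7.

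The beta ring also held 7 measured genes, and the standard cutting subunits stayed close to the control. *PSMB5*, which encodes the chymotrypsin-like subunit, was at 297.3, 285.0 and 276.4 CPM in the control libraries, at 300.3, 304.8 and 295.9 CPM in those of sh1-*TUG1* and at 317.8, 323.5 and 306.9 CPM in those of sh2-*TUG1*. It rose in sh2-*TUG1* by 0.14 on the log2 scale (SE 0.046, adjusted p = 0.033), a call that held in 7 of 13 alternative settings. With 1 library left out it held only without sh-Con replicate 1 or sh2-*TUG1* replicate 3 (adjusted p up to 0.12 without another). The sh2-*TUG1* libraries all lay above the control ones.

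*PSMB6*, the caspase-like subunit, was at 74.0, 81.7 and 79.3 CPM in the control libraries, at 86.4, 86.5 and 87.2 CPM in those of sh1-*TUG1* and at 84.7, 91.3 and 69.8 CPM in those of sh2-*TUG1*. Its log2 fold changes were 0.15 (adjusted p = 0.074) and 0.06 (adjusted p = 0.62). *PSMB7*, the trypsin-like subunit, was at 115.8, 121.8 and 121.7 CPM in the control libraries, at 117.4, 118.6 and 127.4 CPM in those of sh1-*TUG1* and at 123.6, 123.0 and 116.4 CPM in those of sh2-*TUG1*. The 3 groups of *PSMB7* overlapped, with log2 fold changes of 0.02 and 0.01. The interval of its change was −0.10 to 0.13 in sh1-*TUG1* and −0.10 to 0.12 in sh2-*TUG1*. Of the structural beta genes, *PSMB1* fell in sh2-*TUG1* by 0.14 on the log2 scale (SE 0.047, adjusted p = 0.041). With 1 library left out that call held only without sh-Con replicate 1 (adjusted p up to 0.13 without another).

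Of the functional groups, the 3 immunoproteasome genes had the largest median log2 fold change in sh2-*TUG1*, at −0.37. In sh1-*TUG1* their median was also the largest in size, at −0.18, but none of them passed the test (24.8% of all genes did). *PSMB8*, which takes the place of *PSMB5*, was at 28.1, 29.9 and 28.2 CPM in the control libraries, against 29.3, 29.6 and 29.8 CPM in those of sh1-*TUG1*. In sh2-*TUG1* it was at 24.1, 22.1 and 21.4 CPM, below all 6 other libraries. Its log2 fold change was −0.35 in sh2-*TUG1* (SE 0.069, adjusted p = 0.0029) and 0.04 in sh1-*TUG1* (SE 0.058, adjusted p = 0.66). The difference between the lines was −0.39 (SE 0.061, adjusted p = 0.00034). Of the exon bases of *PSMB8*, 20.6% overlap the non-coding gene *PSMB8-AS1* and 4.64% overlap *PSMB9*, both on the opposite strand. Without strand in the counts, the shared bases cannot be told apart.

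*PSMB10*, the partner of *PSMB7*, was at 16.9, 16.2 and 14.4 CPM in the control libraries, at 11.5, 14.97 and 14.75 CPM in those of sh1-*TUG1* and at 12.4, 13.3 and 10.96 CPM in those of sh2-*TUG1*. It fell in sh2-*TUG1* by 0.37 on the log2 scale (SE 0.10, adjusted p = 0.016), while in sh1-*TUG1* its change was −0.20 (SE 0.12, adjusted p = 0.25). The call in sh2-*TUG1* was lost without sh2-*TUG1* replicate 3 (log2 fold change −0.30, adjusted p = 0.057), and without both deviating libraries (−0.25, adjusted p = 0.095). The difference between the 2 lines was −0.17 (95% interval −0.43 to 0.09, adjusted p = 0.26), so the lines were not shown to differ for this gene. The gene shares 34.8% of its exon bases with the overlapping gene *AC040162.1* on the same strand, whose own log2 fold change in sh2-*TUG1* was 0.18 (adjusted p = 0.64), and counts of the shared bases cannot be told apart.

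*PSMB9*, the partner of *PSMB6*, was the least expressed subunit, with 44, 71 and 86 counts in sh-Con, 49, 83 and 52 in sh1-*TUG1* and 48, 38 and 52 in sh2-*TUG1*. Its log2 fold change in sh2-*TUG1* was −0.54 (SE 0.27, 95% interval −1.14 to 0.06, adjusted p = 0.13). Without sh-Con replicate 1 it was −0.74 (adjusted p = 0.043), which is the 1 setting in which a proteasome gene passed a fold change of 1.5. *TAP1*, a peptide transporter gene that shares its promoter region with *PSMB9*, had log2 fold changes of 0.18 (adjusted p = 0.065) and 0.06 (adjusted p = 0.45).

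The level of each immunoproteasome gene, per length of transcript, was taken as a share of the sum of it and its standard partner. *PSMB8* made up 10.4% ± 0.51 of its sum with *PSMB5* (mean ± SD, n = 3) in sh-Con, 10.2% ± 0.19 in sh1-*TUG1* and 7.59% ± 0.39 in sh2-*TUG1*. *PSMB10* made up 9.60% ± 0.91, 8.35% ± 0.97 and 7.50% ± 0.48 of its sum with *PSMB7*. *PSMB9* made up 2.58% ± 0.58, 2.09% ± 0.62 and 1.75% ± 0.37 of its sum with *PSMB6*. The sh2-*TUG1* libraries lay wholly below sh-Con for *PSMB8* and *PSMB10*, and overlapped with it for *PSMB9*. The summed level of the 3 immunoproteasome genes in sh2-*TUG1* was 0.777 of that in sh-Con, against 1.02 for the beta ring.

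In the 19S cap, 6 genes encode ATPases and 11 the other subunits. *PSMC6*, an ATPase, was at 77.1, 79.6 and 79.1 CPM in the control libraries, at 69.8, 62.3 and 69.5 CPM in those of sh1-*TUG1* and at 79.7, 78.7 and 74.2 CPM in those of sh2-*TUG1*. It fell in sh1-*TUG1* by 0.23 on the log2 scale (SE 0.058, adjusted p = 0.019), where all 3 libraries lay below the control ones, while its change in sh2-*TUG1* was −0.02 (adjusted p = 0.76). The call was lost without sh1-*TUG1* replicate 2 (−0.18, adjusted p = 0.077). *PSMC1* fell in sh2-*TUG1* by 0.15 (SE 0.056, adjusted p = 0.048), and its change in sh1-*TUG1* was also −0.15 (SE 0.051, adjusted p = 0.061). DESeq2 did not call *PSMC1* in sh2-*TUG1* (−0.15, adjusted p = 0.054), and with 1 library left out the edgeR call held only without sh-Con replicate 1 or sh2-*TUG1* replicate 3 (adjusted p up to 0.16 without another). Of its exon bases, 75.8% overlap *NRDE2* on the opposite strand, which rose in sh2-*TUG1* by 0.25 (adjusted p = 0.033), and without strand in the counts the 2 genes cannot be told apart.

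Of the 11 non-ATPase genes, 2 fell in sh1-*TUG1* (12.3% of all genes did) and 1 rose in sh2-*TUG1* (21.6% of all genes did). *PSMD8* was at 128.4, 117.6 and 117.9 CPM in the control libraries, at 110.7, 102.2 and 104.7 CPM in those of sh1-*TUG1* and at 113.8, 130.5 and 136.7 CPM in those of sh2-*TUG1*. It fell by 0.20 on the log2 scale in sh1-*TUG1* (SE 0.053, adjusted p = 0.024). The call held in 11 of 13 alternative settings and was lost without sh1-*TUG1* replicate 2 (adjusted p = 0.10) and replicate 3 (adjusted p = 0.085). *PSMD12*, a lid subunit, fell by 0.17 there (SE 0.053, adjusted p = 0.041), and with 1 library left out the call held only without sh-Con replicate 1 (adjusted p up to 0.12 without another). *PSMD11*, also a lid subunit, rose in sh2-*TUG1* by 0.17 (SE 0.047, adjusted p = 0.014), a call lost without sh-Con replicate 3 (adjusted p = 0.054). *PSMD14*, which removes the ubiquitin chain, had log2 fold changes of −0.17 (adjusted p = 0.10) and −0.19 (adjusted p = 0.075). The summed level of the 11 genes in sh1-*TUG1* was 0.932 of that in sh-Con, and in sh2-*TUG1* it was 0.986.

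Among the alternative caps, *PSME4* showed the largest rise of any proteasome gene. It encodes PA200, a single-chain nuclear activator of the core. It stood at 160.1, 152.3 and 158.2 CPM in the control libraries, at 163.0, 151.4 and 146.5 CPM in those of sh1-*TUG1* and at 215.6, 210.8 and 209.2 CPM in those of sh2-*TUG1*. Every sh2-*TUG1* library was above the other 6, and the other two groups overlapped. *PSME4* rose in sh2-*TUG1* by 0.43 on the log2 scale (SE 0.045, adjusted p = 7.0e-05), and its change in sh1-*TUG1* was −0.03 (SE 0.051, adjusted p = 0.70). The call held in 13 of 13 alternative settings, between 0.40 and 0.45.

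*PSME3*, which encodes the nuclear cap PA28 gamma, was at 190.4, 200.7 and 195.0 CPM in the control libraries, at 205.5, 208.1 and 203.4 CPM in those of sh1-*TUG1* and at 223.0, 216.6 and 227.0 CPM in those of sh2-*TUG1*. It rose in sh2-*TUG1* by 0.18 (SE 0.046, adjusted p = 0.00998), and its change in sh1-*TUG1* was 0.07 (adjusted p = 0.23). *PSME1* and *PSME2*, have products that form the interferon-induced cap PA28. *PSME1* was at 170.9, 184.7 and 188.2 CPM in the control libraries, at 201.0, 201.2 and 196.2 CPM in those of sh1-*TUG1* and at 179.7, 185.7 and 165.5 CPM in those of sh2-*TUG1*. *PSME2* was at 172.7, 165.9 and 166.4 CPM in the control libraries, at 152.4, 160.1 and 152.9 CPM in those of sh1-*TUG1* and at 165.4, 160.4 and 156.6 CPM in those of sh2-*TUG1*. In sh2-*TUG1* their log2 fold changes were −0.04 (95% interval −0.17 to 0.10) and −0.07 (−0.17 to 0.03), and neither passed the test. In sh1-*TUG1* they were 0.14 and −0.12 (adjusted p = 0.065 and 0.073). Between the lines *PSME1* differed by −0.17 on the log2 scale, second line minus first (adjusted p = 0.018). *PSMF1*, an inhibitor of the core, had log2 fold changes of −0.09 and −0.10 (adjusted p = 0.26 and 0.21).

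**Figure D3:**
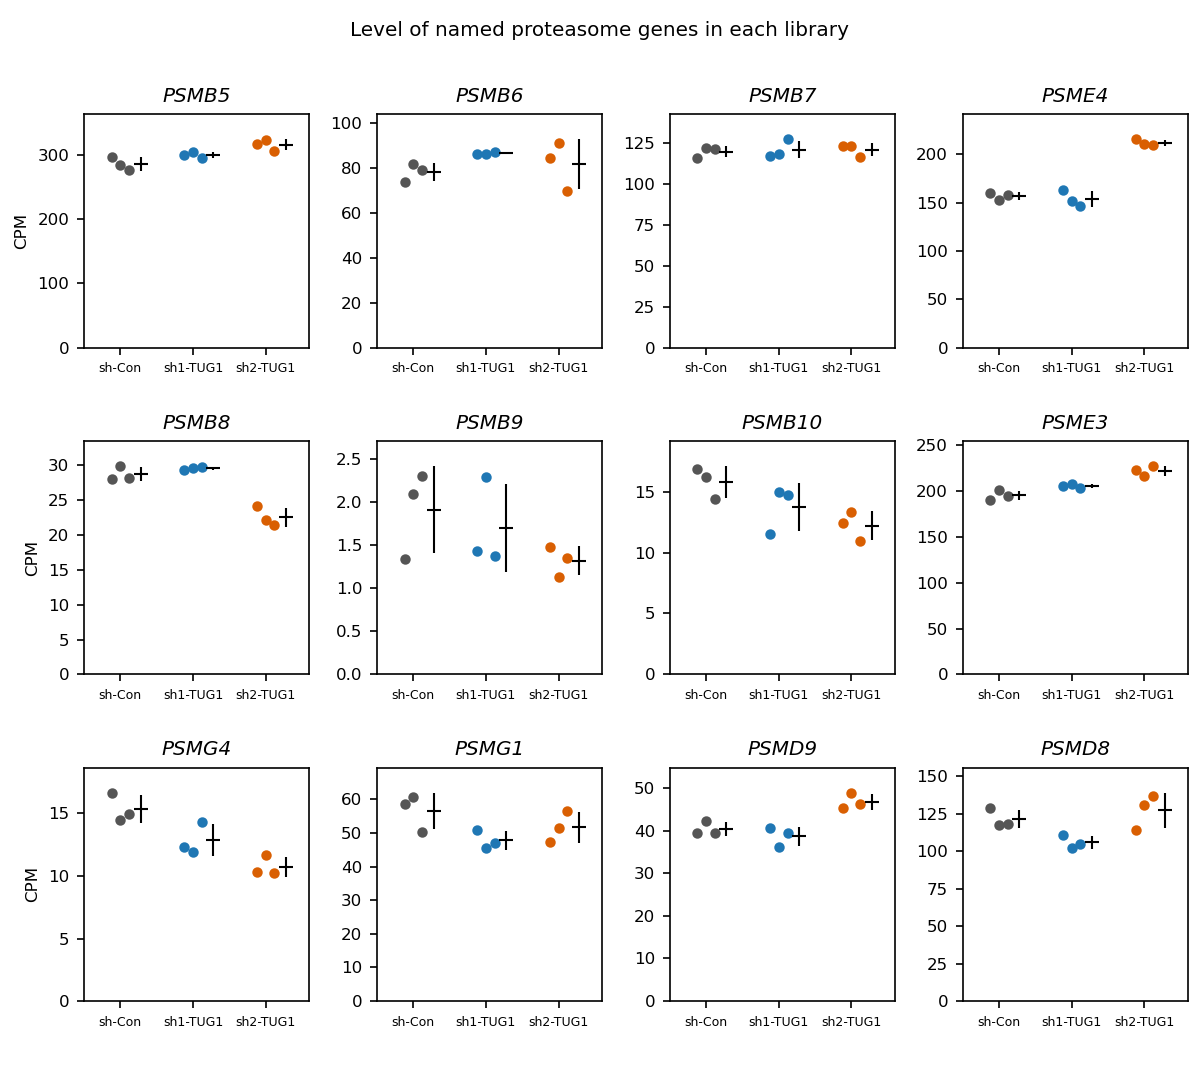
Level in CPM (y axes, from 0) of 12 named proteasome genes in the 9 libraries. Points are libraries, and the line and bar beside them are mean ± SD of 3. PSME4 is separated upward and PSMB8 downward in sh2-TUG1, while PSMB7 overlaps in all 3 groups.

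The chaperones that assemble the proteasome moved in both directions. *PSMG4*, of the alpha-ring assembly complex, was at 16.7, 14.5 and 14.9 CPM in the control libraries, at 12.3, 11.9 and 14.3 CPM in those of sh1-*TUG1* and at 10.3, 11.6 and 10.2 CPM in those of sh2-*TUG1*. It fell in sh2-*TUG1* by 0.52 (SE 0.099, adjusted p = 0.0024), the largest called change of a proteasome gene, and its change in sh1-*TUG1* was −0.26 (SE 0.10, adjusted p = 0.093). All libraries of either line lay below the control ones. The gene overlaps *SLC22A23* on the opposite strand over 13.3% of its exon bases, which rose in both lines (0.31 and 0.32, adjusted p = 0.0025 and 0.0014). It also overlaps *TUBB2B* on that strand over 1.67% of them, which fell in both (−0.21 and −0.36, adjusted p = 0.022 and 0.00096), and counts of shared bases cannot be told apart.

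*PSMG1*, of the same pathway, was at 58.7, 60.6 and 50.4 CPM in the control libraries, at 50.8, 45.4 and 47.1 CPM in those of sh1-*TUG1* and at 47.3, 51.4 and 56.5 CPM in those of sh2-*TUG1*. It fell in sh1-*TUG1* by 0.24 (SE 0.076, adjusted p = 0.042), although the groups overlapped. The call held in 6 of 13 alternative settings and, with 1 library left out, only without sh-Con replicate 3 (adjusted p up to 0.15 without another). Its partner *PSMG2* was at 30.3, 34.0 and 33.3 CPM in the control libraries, at 33.6, 31.5 and 31.3 CPM in those of sh1-*TUG1* and at 28.2, 28.6 and 28.3 CPM in those of sh2-*TUG1*. It fell in sh2-*TUG1* by 0.20 (SE 0.065, adjusted p = 0.030), and the call held in 7 of 13 settings and, with 1 library left out, only without sh-Con replicate 1 (adjusted p up to 0.11 without another). On the opposite strand, *PSMG2* overlaps *CEP76* over 13.9% of its exon bases and *SPIRE1* over 2.74%. Their log2 fold changes in sh2-*TUG1* were −0.12 (adjusted p = 0.41) and 0.43 (adjusted p = 0.00012), and counts of shared bases cannot be told apart.

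Of the chaperones of the 19S base, *PSMD9* was at 39.5, 42.3 and 39.5 CPM in the control libraries, at 40.6, 36.2 and 39.4 CPM in those of sh1-*TUG1* and at 45.3, 48.9 and 46.2 CPM in those of sh2-*TUG1*. It rose in sh2-*TUG1* by 0.21 (SE 0.060, adjusted p = 0.018), where all 3 libraries lay above the others. The call held in 11 of 13 alternative settings and was lost without sh-Con replicate 3 (adjusted p = 0.067) and without sh2-*TUG1* replicate 2 (adjusted p = 0.077). Of its exon bases, 4.97% overlap *WDR66* on the same strand, which rose in sh2-*TUG1* by 1.07 (adjusted p = 0.0059), and counts of those bases cannot be told apart. *PSMD5* was at 30.8, 32.1 and 30.2 CPM in the control libraries, at 34.4, 35.4 and 36.6 CPM in those of sh1-*TUG1* and at 32.0, 30.4 and 33.6 CPM in those of sh2-*TUG1*. It rose in sh1-*TUG1* by 0.19 (SE 0.057, adjusted p = 0.036), the 1 rise in that line. The call held in 6 of 13 alternative settings and, with 1 library left out, only without sh-Con replicate 1 (adjusted p up to 0.14 without another). *PSMD10* had log2 fold changes of −0.05 and −0.10 and passed in neither. *PSMC3IP*, by name only, was at 1.61 ± 0.25 CPM in sh-Con and had log2 fold changes of 0.21 and 0.18 (adjusted p = 0.52 and 0.58).

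The 2 knockdown lines were also compared directly. Of the 47 genes, 9 were higher in sh2-*TUG1* (21% of all genes were) and 5 were lower (21.7% of all genes), which became 3 and 8 when libraries were scaled by their size alone. The libraries of the 2 lines did not overlap for 19 of 47 genes, against 55.4% of all shared genes. *PSME4* was the most different, at 0.46 (SE 0.046, adjusted p = 1.3e-05), followed by *PSMB8*. Of the 19S genes, 1 of 6 ATPase genes (*PSMC6*) was higher in sh2-*TUG1*, where 21% of all genes were. Of the 11 other 19S genes, 4 were higher (*PSMD3*, *PSMD8*, *PSMD11* and *PSMD12*). The differences of these genes were 0.14 to 0.26, and *PSMD3* kept its call in 4 of 9 fits with 1 library left out.

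Genes outside the complex that act on it were counted as well. NFE2L1, which drives subunit transcription, is processed into its active form by NGLY1 and DDI2 and pairs with the small MAF proteins. *NFE2L1* was at 754.4, 660.3 and 666.2 CPM in the control libraries, at 630.7, 633.6 and 612.5 CPM in those of sh1-*TUG1* and at 856.3, 860.7 and 867.4 CPM in those of sh2-*TUG1*. It rose in sh2-*TUG1* by 0.31 (SE 0.055, adjusted p = 0.0016), and its change in sh1-*TUG1* was −0.15 (SE 0.053, adjusted p = 0.064). The 3 groups did not overlap. Among the controls sh-Con replicate 1 was the highest, and no fit without it is given for this gene.

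This regulatory group had 12 genes. In sh1-*TUG1*, 2 rose and 5 fell (24.8% of all genes passed the test). In sh2-*TUG1*, 6 rose and 2 fell (43.5% of all genes passed). *MAFF* and *MAFK*, which encode small MAF proteins, were called in opposite directions, with −0.24 and −0.18 in sh1-*TUG1* (adjusted p = 0.0092 and 0.043) and 0.42 and 0.57 in sh2-*TUG1* (adjusted p = 0.00040 and 4.3e-05). *DDI2*, the protease that cuts NFE2L1, rose in both (0.20 and 0.16), and *NGLY1* fell in both (−0.24 and −0.24). *NFE2L3*, a relative of *NFE2L1*, fell in both (−0.41 and −0.63).

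**Figure D4:**
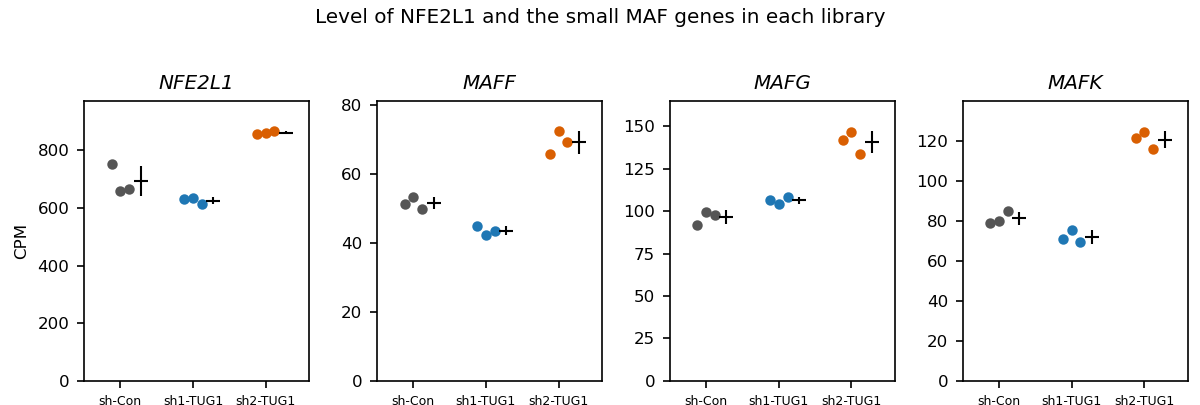
Level in CPM (y axes, from 0) of NFE2L1 and the small MAF genes in the 9 libraries. Points are libraries, and the line and bar beside them are mean ± SD of 3. All 4 genes were higher in every sh2-TUG1 library than in any other library.

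Another 20 genes encode proteins that associate with the proteasome. In sh1-*TUG1*, edgeR called 2 of them lower and 0 higher (1 higher at an unadjusted p under 0.05, and 0 by DESeq2), where 24.8% of all genes were called. In sh2-*TUG1*, 6 rose and 1 fell, where 43.5% of all genes were called. Of 6 genes for ubiquitin and its activating enzymes, 1 rose in sh1-*TUG1* and 2 rose in sh2-*TUG1*, against the same shares. *UBB*, a ubiquitin gene, rose in both lines (0.31 and 0.25, adjusted p = 0.0060 and 0.017). Its level in the control libraries was 537.0, 446.7 and 465.7 CPM, and no fit without sh-Con replicate 1 is given for it.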

How the data were processed

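RNA-seq was performed on HepG2 cells with a NEBNext Ultra RNA kit. The submitters' processing notes name HISAT2, StringTie and GRCh38, and versions, roles and use of strand are not given in the sources used here. The authors deposited raw read counts per gene in 2 tables, each with the same control counts. The deposited tables also hold FPKM values and the authors' own FDR and log2 fold change columns, none of which was used. All count columns matched a sample.

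Each line was compared with sh-Con over its own 6 libraries by the quasi-likelihood test of edgeR 4.0.16 in R 4.3.3 with TMM scaling, and sh2-*TUG1* with sh1-*TUG1* over all 9 libraries. Adjustment was by Benjamini-Hochberg over all genes, with no further filter. DESeq2 1.42.0 was an alternative. Code was tested on simulated data. Totals per library were 33051617 to 39393293 counts, and the lowest count of a member was 38. Transcript lengths and overlaps came from GENCODE 29, which matched 47 of 47 members, and promoters from RefSeq. Of the members, 12 have named pseudogenes whose reads may be split. Replicate numbers did not pair the libraries (0 of 9 same-numbered pairs correlated over 0.1 across 9312 genes of at least 10 CPM, and 3 of 9 across the 47 members, where the lowest was −0.69). Named genes were those called with the 3 largest rises and falls in each comparison at a mean of at least 50 counts, any past a fold of 1.5, *PSMB5* to *PSMB10* and *PSME1* to *PSME4*. Other genes are named with their group. The members, lists and motifs were chosen with earlier results of these data known. The result of 1 further gene list is not reported here.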

Additional observations from a re-analysis of the deposited data

Results flagged for a closer look

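The change differed between the 2 knockdown lines for 14 proteasome genes, by edgeR's test of sh2-*TUG1* against sh1-*TUG1* over all 9 libraries (adjusted p under 0.05), with both lines set against the same control. Values are log2 differences, sh2-*TUG1* minus sh1-*TUG1*. *PSME4* differed by 0.463, *PSMD9* by 0.272, *PSMD8* by 0.263, *PSMC6* by 0.207, *PSMD12* by 0.181, *PSMD3* by 0.162, *PSMD11* by 0.139, *PSMA4* by 0.131 and *PSME3* by 0.112. The value was −0.393 for *PSMB8*, −0.179 for *PSMG2*, −0.173 for *PSME1*, −0.137 for *PSMB3* and −0.110 for *PSMB1*. Those of *PSME4*, *PSMB8*, *PSMD8* and *PSMD9* passed the test in 14 of 14 alternative settings. That of *PSMC6* passed in 13, of *PSME1* in 11, of *PSMG2* in 8 and of *PSME3* in 7 (adjusted p up to 0.35). With each of the 9 libraries left out in turn, *PSMC6* kept the call in 9 of 9 fits. Some of these fits, also among the 14 settings, leave out a control library, which belongs to neither line, and they hardly moved the differences. Most fits in which *PSMG2*, *PSME3* and *PSMD3* kept the call were of that kind. *PSMD12* kept it in 8 (lost without sh2-*TUG1* replicate 3), *PSMD11* in 7 (lost without sh1-*TUG1* replicate 1 or sh2-*TUG1* replicate 3) and *PSME1* in 6 (lost without sh1-*TUG1* replicate 1 or 2 or sh2-*TUG1* replicate 3). *PSMB3* kept it in 5 (lost without replicate 1 or 2 of either line). *PSMG2*, *PSME3*, *PSMA4* and *PSMD3* kept it in 4, each losing it on removal of any 1 of several libraries of both lines (adjusted p up to 0.17), and *PSMA4* also without sh-Con replicate 3. *PSMB1* kept it in 1, without sh-Con replicate 1. Each line is 1 stable line per hairpin, so hairpin and line cannot be told apart.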

How the results depend on the processing

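Results were recomputed with DESeq2, with RLE size factors, with scaling by library size alone, with a filter of 1 CPM in 3 libraries, 1 fit of all libraries, a replicate block, each library left out and, chosen after seeing the data, both deviating libraries left out. No called fold change of a named gene changed sign. Library size alone gave 5 genes higher and 2 lower in sh1-*TUG1* (median log2 fold change −0.0050), 10 lower in sh2-*TUG1* (median −0.074), and 3 higher and 8 lower in sh2-*TUG1* against sh1-*TUG1* (median −0.069). It moved the median of all genes from 0.0027 to 0.030, from −0.0048 to −0.040 and from −0.00067 to −0.065. With the replicate block, whose numbers do not pair the libraries, 0 were higher in sh1-*TUG1*, 3 were higher and 3 lower in sh2-*TUG1*, and 2 were lower in sh2-*TUG1* against sh1-*TUG1*. Of the deviating libraries only sh-Con replicate 1 is in the fit of sh1-*TUG1*. There the setting repeats the fit without that library (3 higher), and the 13 settings of that line count this fit in both places. Leaving out each library gave 0 to 3 higher (0 without sh1-*TUG1* replicate 1, 3 without sh-Con replicate 1) and 0 to 6 lower (0 without sh1-*TUG1* replicate 2) in sh1-*TUG1*, with medians of −0.054 to −0.017. In sh2-*TUG1* it gave 2 to 7 higher (2 without sh-Con replicate 3), 3 to 8 lower (3 without sh-Con replicate 2), medians of −0.046 to −0.016, and 0 to 1 past a fold change of 1.5 (1 without sh-Con replicate 1). Between the lines it gave 4 to 9 higher (4 without sh2-*TUG1* replicate 3), 1 to 8 lower (1 without sh1-*TUG1* replicate 1), and medians of −0.0078 to 0.023. The cause of these moves was not tested.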
